A study of Mus musculus with 3 samples.

Results

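The genes described here carry bile acids through the absorptive cells of the small intestine and report their arrival. They were chosen by symbol, as Slc10a2, Fabp6, Slc51a, Slc51b, Fgf15, Nr1h4 and Nr0b2, and all 7 were found among the 31053 genes of the count tables. Bile acids are made in the liver, released into the duodenum with bile, and largely taken back in the last stretch of the small intestine, the ileum. Slc10a2 encodes the apical sodium-dependent transporter that brings them into the enterocyte, Fabp6 a small cytosolic protein that binds them there, and Slc51a and Slc51b the paired subunits of the exporter on the basolateral side. Nr1h4 encodes the bile acid receptor FXR, which binds DNA together with the retinoid X receptor, Nr0b2 the corepressor SHP, a known target of FXR, and Fgf15 a hormone, also an FXR target, that is released to the portal blood and lowers bile acid synthesis in the liver.

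The small intestine of C57BL/6N wild-type mice, all male and 12 weeks old, was cut into 3 parts named duodenum, jejunum and ileum. For each part, cells of 3 mice were pooled before 1 droplet library was made, after detachment of the epithelium and a sort for live cells by exclusion of propidium iodide, and no treatment or second genotype was part of the design. The libraries were counted in unique molecular identifiers (UMIs), each standing for 1 captured transcript. Mice cannot be told apart within a library, and segment and library cannot be told apart either, so no difference between segments was tested.

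The letters in front of these genes were compared with the element that FXR is known to bind, an inverted repeat of the half-site AGGTCA with 1 base between the copies. The motif searched was AGGTCANTGACCT, where N is any base, which reads the same on both strands. The window ran from 250 bases before to 50 bases after the RefSeq start of each gene on GRCm38.p6, and 6 of the 7 genes had an entry. Of 32544 such windows with distinct sequences, 1.14% held the motif with at most 2 mismatches, and 4 windows (0.0123%) held it in 2 places, one of them that of Fabp6. The sequences below are shown because Fabp6 is the most abundant of the genes and the exporter subunits come next by mismatch. Capitals mark the bases aligned to the motif and all 4 are read 5′ to 3′ on the minus strand, the strand of the genes.
Fabp6, chr11:43601764-43601792, from 222 bases before the start, 2 mismatches: gagcagagAGGTGAATGACCAcactctgt
Fabp6, chr11:43601684-43601712, from 142 bases before the start, 2 mismatches: tttccttaAGGTGAATAACCTtggggctc
Slc51a, chr16:32487938-32487966, from 79 bases before the start, 3 mismatches: accacgtgAGGACTTTGTCCTtctcttct
Slc51b, chr9:65422940-65422968, from 187 bases before the start, 3 mismatches: cattcgtgGGGTCATTCACCCtggactgg

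At 3 mismatches the motif is common, and 11.4% of all windows held a match at least that close. The closest match in the windows of Slc10a2, Nr1h4 and Nr0b2 had 4 mismatches. The Slc51b stretch overlaps the first bases of the gene as GENCODE draws it, since the start used by RefSeq lies further inside. A match of letters is a description of the window and was not tested for binding.

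In GENCODE M21 on GRCm38 the genes lie on 7 chromosomes. Slc10a2 (ENSMUSG00000023073) spans chr8:5083219-5105351, Fabp6 (ENSMUSG00000020405) chr11:43596049-43601540, Slc51a (ENSMUSG00000035699) chr16:32474504-32487879, Slc51b (ENSMUSG00000053862) chr9:65412714-65422955 and Nr1h4 (ENSMUSG00000047638) chr10:89454234-89533585, all on the minus strand. Fgf15 (ENSMUSG00000031073) spans chr7:144896531-144900953 and Nr0b2 (ENSMUSG00000037583) chr4:133553376-133556536, both on the plus strand.

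The libraries held 98518847, 87656078 and 78074516 UMIs for the duodenum, the jejunum and the ileum. Filters kept 4255 of 9501, 4360 of 8139 and 8071 of 9595 barcodes, with a median of 12424, 11737 and 5536 UMIs and a median mitochondrial share of 27.1%, 27.2% and 11.1%, and 5, 4 and 12 kept barcodes occurred in both libraries of the pairs duodenum with ileum, duodenum with jejunum and ileum with jejunum. Clusters were named from marker lists that hold none of the 7 genes, and enterocytes made up 3209, 3316 and 4128 cells, early enterocytes 364, 280 and 401. Clusters c5, c3 and c0 held most duodenal enterocytes, c0, c2 and c1 most jejunal and c4, c1 and c2 most ileal ones, with haemoglobin genes leading c4 and interferon response genes (Ifit1, Rsad2, Isg15) leading the enterocyte cluster c15. Against the duodenum, all 6 proximal marker genes lay at least 4-fold lower and all 3 distal ones at least 4-fold higher in ileal enterocytes. Against the jejunum 0 of the 3 distal genes reached 4-fold, and of the 4 proximal genes with enough UMIs 2 lay higher in the ileum (Slc40a1 and S100g) and 1 lower.

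A cluster of 920 cells, called c8 below, stayed unnamed because no marker of its best list, that of early enterocytes, was among its leading genes. It held 111, 183 and 626 cells of the 3 segments. In ileal c8 the early enterocyte marker Krt19 stood at 27.1 UMIs per 10000 UMIs, against 2.93 in enterocytes and 43.4 in early enterocytes. The non-coding gene Gm26917 stood at 48.7, 40.02 and 19.6 UMIs per 10000 in c8 of the duodenum, the jejunum and the ileum, against at most 1.73 in enterocytes. The pancreatic genes Ctrb1 and Prss2, with 2022 and 840 UMIs, were counted in c8 of the jejunum and had 0 UMIs in c8 of the other segments, where 3 UMIs stand as the limit that a count of 0 allows. These 4 genes were named after their values were seen. Of the ileal UMIs, c8 held 17.4% for Fabp6, 19.9% for Fgf15, 12.9% for Nr1h4 and 7.35% for Slc51a, but 3.97% for Slc10a2 and 5.63% for Slc51b.

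A level is the number of UMIs of a gene per 10000 UMIs of all genes, over the cells of a class in a library added up. Its interval is an exact Poisson interval at 95%, which covers the error of counting and nothing else. The counts are of 3′ ends, so a gene's length does not enter the level.

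In ileal enterocytes the 7 genes together took 1.63% of all UMIs, in early enterocytes 4.23% and in c8 6.29%. Fabp6 alone made up 85.7%, 93.0% and 95.2% of these. In enterocytes of the duodenum and the jejunum the 7 genes together took 0.0282% and 0.0254%.

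Slc10a2, the uptake transporter, stood at 0.0170 UMIs per 10000 in duodenal enterocytes (69 UMIs, 0.0132 to 0.0215), 0.0311 in the jejunum (136 UMIs, 0.0261 to 0.0368) and 4.98 in the ileum (16474 UMIs, 4.90 to 5.05). At a depth of 800 UMIs in every cell, 0.125%, 0.271% and 23.1% of enterocytes held a UMI of it, and 1.93%, 2.93% and 62.2% did so before thinning. The ileal level was lower in early enterocytes, at 3.31, and in c8, at 2.72. Of all Slc10a2 UMIs of the 3 libraries, 98.9% came from the ileum, and the intervals of the 3 segments do not overlap.

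Fabp6, the cytosolic bile acid binding protein, was counted with 3 UMIs in duodenal, 5 in jejunal and 462524 in ileal enterocytes. The ileal level was 140 UMIs per 10000 (139.3 to 140.1) in enterocytes, 393 in early enterocytes and 599 in c8. A single ileal cell held up to 3416 Fabp6 UMIs. The order of the 3 classes was thus the reverse of that of Slc10a2, with enterocytes lowest for Fabp6 and highest for Slc10a2. Outside the ileum the gene was near 0 in every class, with 9 UMIs in all kept cells of the duodenum and 19 in those of the jejunum.

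Slc51a, the alpha subunit of the exporter, was counted in enterocytes of all segments, at 1.24 UMIs per 10000 in the duodenum (1.21 to 1.28), 0.981 (0.952 to 1.01) in the jejunum and 8.38 (8.28 to 8.48) in the ileum. Slc51b, the beta subunit, stood at 1.16 (1.13 to 1.198), 1.35 (1.31 to 1.38) and 7.19 (7.10 to 7.28). The ileum was highest for both subunits, while duodenum and jejunum stood in opposite orders. After thinning, 8.29%, 7.45% and 37.6% of enterocytes held Slc51a and 8.57%, 8.84% and 35.7% Slc51b, against 64.5%, 52.3% and 82.8%, and 64.1%, 66.5% and 85.7%, before it. In early enterocytes the alpha subunit was higher than in enterocytes of the same segment, at 1.88, 2.97 and 14.5, and the beta subunit stood at 0.904, 1.97 and 6.92. In c8 the alpha subunit stood at 1.57, 2.87 and 11.1 and the beta subunit at 0.767, 1.38 and 6.10.

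Fgf15, the hormone, was counted with 0 UMIs in the whole duodenal library of 57079945 kept UMIs, which allows a level of up to 0.000526 per 10000. In jejunal enterocytes it stood at 0.0156 UMIs per 10000 (68 UMIs, 0.0121 to 0.0197) and in ileal enterocytes at 2.15 (7126 UMIs, 2.10 to 2.20). In both segments c8 lay above them, at 0.790 in the jejunum (0.640 to 0.963) and 8.55 in the ileum (8.23 to 8.88), with early enterocytes between at 0.0866 and 3.21. Of ileal enterocytes 15.1% held a UMI after thinning and 45.1% before it, and of ileal c8 cells 34.2% and 60.7%.

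The cells with an Fgf15 UMI were looked at for the other genes they held. The jejunum had 232 Fgf15 UMIs in 98 cells, and 2 of these cells held a Fabp6 UMI and 4 a Slc10a2 UMI. Both genes were rare there in any cell, with 19 Fabp6 and 156 Slc10a2 UMIs in all 4360 kept jejunal cells. In the ileum 2690 cells held Fgf15, and 2684 of them held Fabp6 and 1884 Slc10a2, where 99.0% and 45.7% of all kept ileal cells held a UMI of these genes, whatever their class. Over all kept cells there were 79.8 Fabp6 UMIs for each Fgf15 UMI in the ileum, and 0.0819 in the jejunum. Of the jejunal Fgf15 UMIs 41.8% lay in c8, and 27 of the 98 cells belonged to it.

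Nr1h4, the receptor, was found in enterocytes of every segment, at 0.281 UMIs per 10000 in the duodenum (0.265 to 0.297), 0.0911 in the jejunum (0.0824 to 0.1005) and 0.589 in the ileum (0.563 to 0.615). The jejunum was lowest. In early enterocytes the level was 0.346, 0.372 and 1.51, so that the jejunum lay near the duodenum there, and in c8 it was 0.475, 0.293 and 1.75. After thinning, 2.40%, 0.452% and 4.31% of enterocytes held a UMI, against 28.1%, 10.2% and 28.1% before it. Rxra, the partner of the receptor on DNA, stood at 0.600, 0.594 and 0.577 in enterocytes of the 3 segments.

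Nr0b2, the corepressor, was rare and fell from duodenum to ileum, with 616, 344 and 122 UMIs in all kept cells of the duodenum, the jejunum and the ileum. In enterocytes its level was 0.118 UMIs per 10000 (0.107 to 0.129), 0.0698 (0.0622 to 0.0781) and 0.0281 (0.0227 to 0.0344). The duodenum was highest and the ileum lowest, with no overlap of the intervals. In c8 it had 4, 0 and 7 UMIs. After thinning, at most 0.841% of enterocytes of any segment held a UMI, and 11.3%, 6.42% and 1.96% did so before it.

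**Figure D1:**
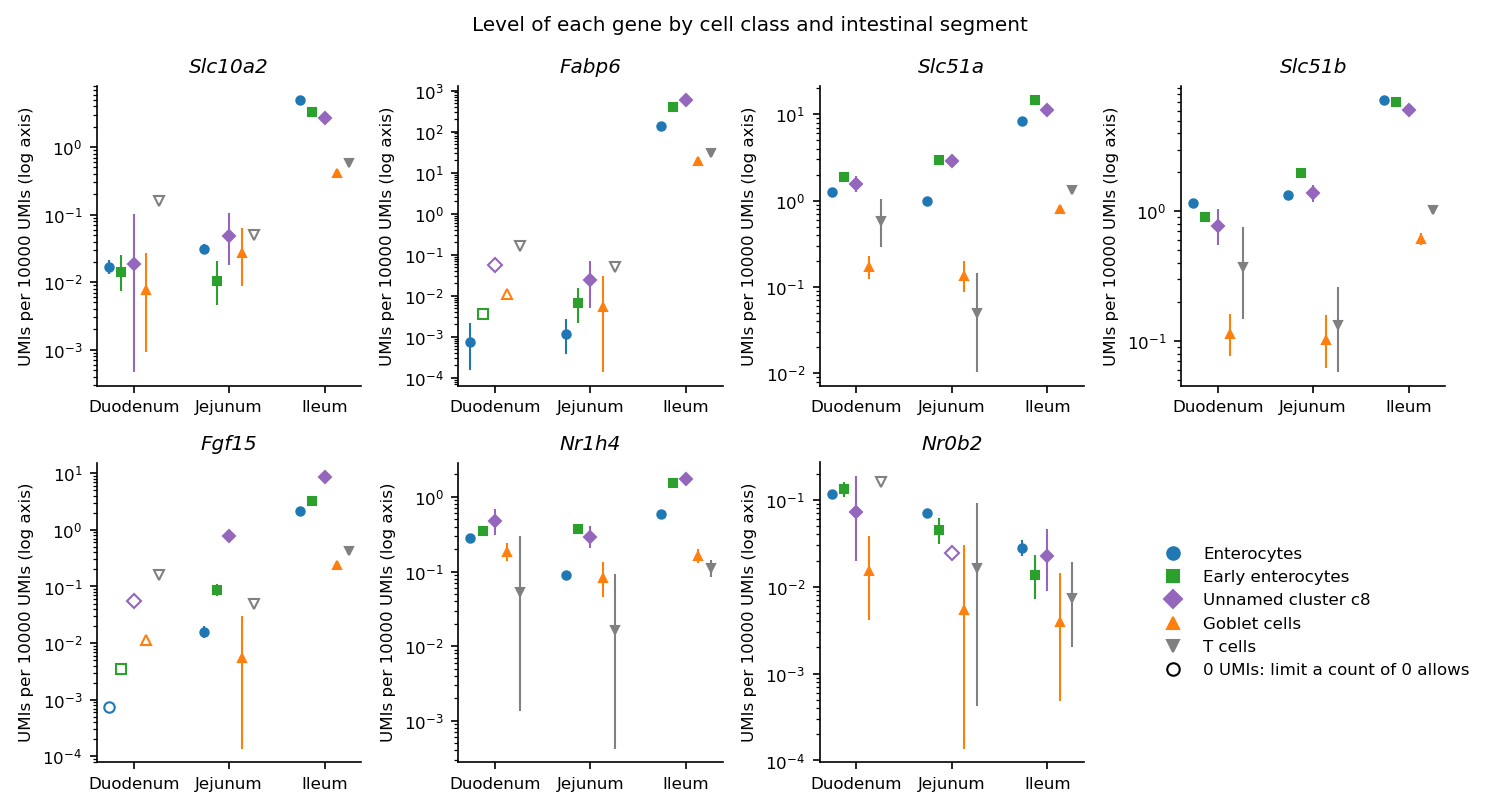
Level of each gene in UMIs per 10000 UMIs (log axis) in enterocytes, early enterocytes, the unnamed cluster c8, goblet cells and T cells of each segment, 1 library each; bars are exact 95% Poisson intervals and open symbols mark a count of 0, drawn at the limit it allows. Slc10a2, Fabp6 and Fgf15 were almost confined to the ileum, with 98.9%, 99.997% and 98.3% of their UMIs there, Slc51a, Slc51b and Nr1h4 were counted in all segments, and Nr0b2 fell from 0.118 to 0.0281 in enterocytes from duodenum to ileum.

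UMIs of these genes were also counted in ileal cells that should lack them. T cells held Fabp6 at 29.3 UMIs per 10000, and 98.1% of the 1087 ileal T cells had a Fabp6 UMI (57.3% after thinning), with a median of 4248 UMIs per T cell against 6343 per enterocyte. The level of the 7 genes in T cells was 11.5% to 26.6% of that in enterocytes, and the 13 enterocyte marker genes stood at 11.6% to 21.6%, with a median of 13.8%. Nr0b2, at 26.6%, rests on 4 UMIs. The 109 T cells with the most enterocyte marker RNA held 65.7% to 76.1% of the T cell UMIs of Slc10a2, Fabp6, Slc51a, Slc51b and Fgf15, and 47.5% of those of Nr1h4. In the other 978 T cells Fabp6 stood at 12.5, Slc10a2 at 0.172 and Fgf15 at 0.144 UMIs per 10000. Free RNA and doublets as sources of these UMIs were not tested. A share of cells with a UMI at or below that in T cells was read as background.

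Other ileal epithelial classes were set against both values. Goblet cells had Fabp6 at 18.9, Slc10a2 at 0.414 and Fgf15 at 0.240 UMIs per 10000, and tuft cells 28.0, 0.424 and 0.433, against 29.3, 0.573 and 0.416 in all T cells, so that goblet cells lay below these and above the other 978 T cells. In enteroendocrine cells, the hormone cells of the epithelium, Slc10a2 stood at 1.13 on 88 UMIs, of which 16 lay in 1 cell, and 21 of the 93 cells held it, 5 after thinning. Goblet cells held Nr1h4 at 27.6% of its level in enterocytes, where none of the 13 enterocyte markers exceeded 12.6%. Enteroendocrine cells of the ileum had Nr1h4 at 0.540, with 42 UMIs in 22 of 93 cells, and stem and proliferating cells at 0.314, both above T cells at 0.110. Enteroendocrine cells of the duodenum had it at 0.228 and those of the jejunum at 0.136.

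Between segments, 6 of the 7 genes lay at least 4-fold higher in ileal than in jejunal enterocytes and 0 at least 4-fold lower. Of the 10808 genes with at least 50 UMIs in both libraries together, 4.27% lay as much higher in the ileum and 2.02% as much lower, and the median log2 ratio was 0.19 over these genes and 3.09 over the 7. Against the duodenum 5 of the 7 lay at least 4-fold higher and 1 lower, where 6.09% and 5.56% of 11023 genes did so, with a median log2 ratio of -0.08 over all genes and 2.75 over the 7. Both comparisons share the ileal library, and both are descriptions of single libraries.

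The transporter Slc10a2 was 159.9-fold higher in the ileum than in the jejunum (135 to 191) and 293-fold higher than in the duodenum (231 to 377). For Fabp6 the ratio was 122119 (52329 to 376104) against the 5 jejunal UMIs and 189104 (64708 to 916987) against the 3 duodenal ones. Fgf15 was 138-fold higher than in the jejunum (109 to 178). Against the duodenum it was 2913-fold higher when 3 UMIs are taken as the limit that a count of 0 allows, and the exact lower limit was 2369-fold. Among all genes counted, these 3 stood at percentiles from 99.8 to 99.99 in both comparisons.

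The exporter subunits differed less. Slc51a was 8.54-fold (8.27 to 8.83) higher than in the jejunum and 6.74-fold (6.55 to 6.95) higher than in the duodenum, and Slc51b 5.34-fold (5.19 to 5.50) and 6.17-fold (5.98 to 6.37). The receptor Nr1h4 was 6.46-fold (5.80 to 7.22) higher than in the jejunum and 2.10-fold (1.95 to 2.26) higher than in the duodenum. Nr0b2 was lower in the ileum, 2.48-fold (1.96 to 3.17) against the jejunum and 4.19-fold (3.35 to 5.29) against the duodenum.

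Over 8 other settings all of these ratios kept their direction. Slc51b fell just below 4-fold against the jejunum over all kept barcodes (log2 ratio 1.97), and Nr0b2 passed 4-fold against the jejunum with at most 20% mitochondrial UMIs (log2 ratio -2.34) and missed it against the duodenum as a mean over cells (log2 ratio -1.99). The ratios against few or no UMIs moved most, with a log2 ratio against the duodenum from 8.87 to 11.92 for Fgf15 and from 14.90 to 17.91 for Fabp6. Fgf15 against the jejunum ran from 5.67 over all kept barcodes to 7.79 at the stricter mitochondrial limit. That limit left 1152 duodenal, 1178 jejunal and 6568 ileal cells.

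**Figure D2:**
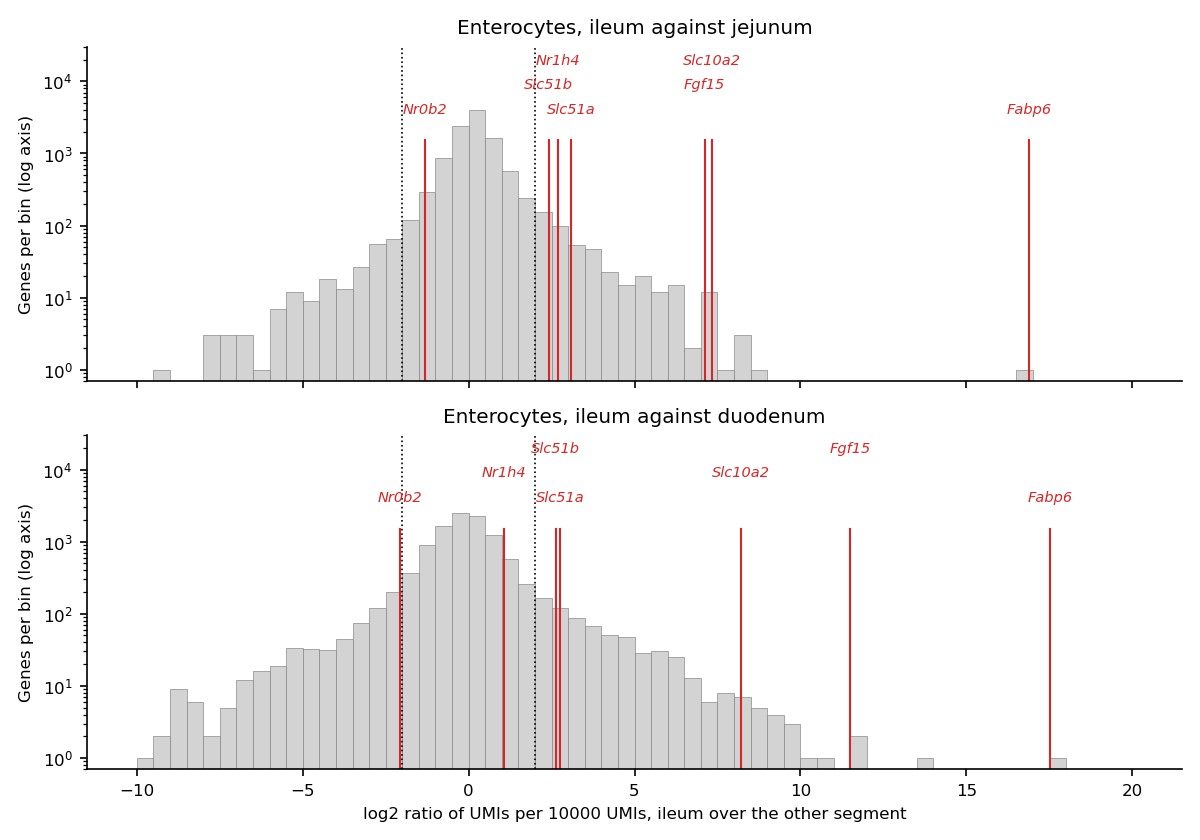
Distribution over genes of the log2 ratio of enterocyte levels, ileum over jejunum (10808 genes) and ileum over duodenum (11023 genes), with the number of genes per bin on a log axis, the 7 genes as red lines and the 4-fold limits dotted. Fabp6 stood furthest to the right in both panels, and Nr0b2 left of 0. The Fgf15 line in the lower panel is a bound that takes 3 UMIs as the limit, since the duodenum had 0 UMIs.

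Of the other pathway genes, 18 of the 19 listed nuclear receptors and regulators had enough UMIs for this ratio. Against the jejunum 1 lay at least 4-fold higher in the ileum, the nuclear receptor Nr5a2 (log2 ratio 2.40), and 1 lower, Nr1i3 (-2.13), the receptor CAR. Against the duodenum 0 lay higher and 2 lower, Nr1i3 (-2.32) and Gata4 (-2.30), a transcription factor of the proximal intestine. The related fatty acid binding proteins went apart, Fabp2 standing at 34.0, 129 and 406 UMIs per 10000 from duodenum to ileum, and Fabp1 at 46.4, 52.6 and 4.69. In ileal enterocytes Fabp2 was thus above Fabp6. Of the 8 listed bile acid and anion transporters 3 had enough UMIs, and Abcc3 was lower in the ileum than in the duodenum (-2.75).

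Cell classes were tested with edgeR (quasi-likelihood) on UMIs summed per library and class. The library entered as a block, and p-values were adjusted over 13227 genes by the Benjamini-Hochberg method. All 31 sums, from every named class with at least 10 cells in a library, entered 1 fit. A p thus measures the spread left over these classes and the 3 libraries, which are also 3 segments. The 3 class comparisons share their enterocyte sums. Enterocytes were first set against early enterocytes, the less mature cells of the same lineage. Slc10a2 was called higher in enterocytes, Fgf15 and Nr1h4 lower, and 4 of the 7 genes did not pass. Of all genes 21.0% were called higher in enterocytes and 18.4% lower, against 1 and 2 of the 7 here, and the median log2 difference was 0.14 over all genes and -0.69 over the 7.

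Slc10a2 was higher in enterocytes of all 3 libraries, on 12 and 8 UMIs in early enterocytes of the duodenum and the jejunum, with a log2 difference of 0.96 (SE 0.35, adjusted p = 0.0278). In the duodenum alone its log2 ratio was 0.26, with a lower counting limit of -0.64, so that library shows no difference beyond counting error. In the ileum alone its level was 1.504-fold higher. Nr1h4 was lower in enterocytes of all 3 libraries, with a log2 difference of -0.93 (SE 0.30, adjusted p = 0.0150), and its level in early enterocytes was 1.23, 4.08 and 2.57 times that in enterocytes of the duodenum, the jejunum and the ileum. Fgf15 was lower in both libraries that held it, with a log2 difference of -1.02 (SE 0.33, adjusted p = 0.0213). Its early enterocytes had 5.57 times the enterocyte level in the jejunum and 1.49 times in the ileum.

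The other 4 genes missed the threshold. Fabp6 had a log2 difference of -1.27 (SE 0.76, adjusted p = 0.198), with 2.81 times the enterocyte level in early enterocytes of the ileum. Slc51a, lower in enterocytes of all 3 libraries, had -0.69 (SE 0.33, adjusted p = 0.0964), Slc51b 0.25 (SE 0.34, adjusted p = 0.610) and Nr0b2 0.82 (SE 0.40, adjusted p = 0.106). These 3 calls were weakly held. Slc10a2 was called in 7 of 11 alternatives (adjusted p from 3.4e-05 to 0.726), Fgf15 in 5 of 11 (0.00369 to 0.937, with the direction turned to a log2 difference of 0.55 at a cluster resolution of 1.2) and Nr1h4 in 9 of 12 (0.0017 to 0.309). At that resolution the early enterocyte class itself changed, to 288 cells from 1045. A cluster of 765 cells, with early enterocytes as its best list, stayed unnamed there. DESeq2 called 0 of the 7, and so did the fit without the jejunal library, where the adjusted p was 0.200 for Slc10a2, 0.761 for Fgf15 and 0.309 for Nr1h4. With c8 counted as enterocytes, a choice made after seeing the data, the log2 difference of Fgf15 was -0.35 (adjusted p = 0.906).

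Against goblet cells, the mucus-secreting cells of the same epithelium, 6 of the 7 genes were called higher in enterocytes and 0 lower, where 21.0% and 16.8% of all genes were, and the median log2 difference was 2.91 over the 7 and 0.13 over all genes. Slc51b had the largest log2 difference, 3.58 (SE 0.40, adjusted p = 3.16e-08), followed by Nr0b2 with 3.21 (SE 0.58, adjusted p = 5.06e-05), Slc51a with 3.10 (SE 0.37, adjusted p = 1.14e-07), Slc10a2 with 2.91 (SE 0.51, adjusted p = 3.8e-05) and Fgf15 with 2.81 (SE 0.44, adjusted p = 4.82e-05). Goblet cells of the duodenum and the jejunum had 2 and 5 UMIs of Slc10a2 and 0 and 1 of Fgf15. The differences of both genes thus rest mainly on the ileal library. Nr1h4 differed least, 0.96 (SE 0.34, adjusted p = 0.0266). Fabp6, at 140 against 18.9 UMIs per 10000 in the ileum and at most 1 goblet cell UMI in the other libraries, had 2.19 (SE 1.07, adjusted p = 0.111).

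In the ileum the levels in enterocytes were 11.7-fold those in goblet cells for Slc51b, 12.0-fold for Slc10a2, 10.4-fold for Slc51a, 8.98-fold for Fgf15, 7.40-fold for Fabp6 and 3.62-fold for Nr1h4. As a share of the enterocyte level, goblet cells thus held 8.32% of Slc10a2, 9.60% of Slc51a, 8.54% of Slc51b and 11.1% of Fgf15, inside the 4.12% to 12.6% of the enterocyte markers, and 13.5% of Fabp6, outside it. The part of UMIs from other cells in these differences was not tested. The calls of Slc51a, Slc51b and Nr0b2 held in every alternative that gave a value. Those of Slc10a2 and Fgf15 were lost with DESeq2 (adjusted p = 0.228 and 0.536, the highest over the alternatives, with 2.41e-07 and 2.0e-07 the lowest) and without a library block (0.187 and 0.276), and that of Nr1h4 in 6 of 12 alternatives (0.00612 to 0.623), among them without the ileal (0.623) or the jejunal library (0.0668).

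Against T cells, 6 of the 7 were called higher and 0 lower, where 31.6% and 29.8% of all genes were, and the median log2 difference was 3.08 over the 7 and 0.10 over all genes. The log2 difference was 3.69 for Slc10a2 (SE 0.53, adjusted p = 6.7e-07), 3.60 for Slc51b (SE 0.44, adjusted p = 4.97e-08), 3.28 for Slc51a (SE 0.41, adjusted p = 7.5e-08), 3.08 for Nr1h4 (SE 0.45, adjusted p = 1.17e-06), 2.84 for Fgf15 (SE 0.44, adjusted p = 1.67e-05) and 2.84 for Nr0b2 (SE 0.63, adjusted p = 0.000261). Fabp6, with 0 UMIs in T cells of the duodenum and the jejunum, had 2.43 (SE 1.07, adjusted p = 0.0507, in alternatives 0.00418 to 0.616). The calls of Slc51a, Slc51b, Nr1h4 and Nr0b2 held in every alternative that gave a value. Slc10a2 lost its call without a library block (adjusted p = 0.144, in alternatives 2.26e-10 to 0.144) and Fgf15 without it (0.292) and with DESeq2 (0.557, in alternatives 9.96e-08 to 0.557). Slc10a2 and Fgf15, like Fabp6, had 0 UMIs in T cells of the duodenum and the jejunum. Slc10a2, Fabp6 and Fgf15 could not be tested without the ileal library, on which their differences mainly rest.

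These calls were read against the scaling. With library totals in place of TMM, the share of calls in the higher direction fell from 53.3% to 31.5% against early enterocytes and from 51.5% to 29.0% against T cells, and the median log2 difference of all genes from 0.14 to -0.16 and from 0.10 to -0.74. Against goblet cells DESeq2's size factors moved the share from 55.6% to 44.8% and the median to -0.15. With library totals Slc10a2 lost its call against early enterocytes (log2 difference 0.62, adjusted p = 0.175) and Slc51a gained one (-1.03, adjusted p = 0.0131), and Slc51b turned to -0.10 (adjusted p = 0.858, in alternatives 0.0274 to 0.865).

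Along the villus, enterocytes of each library were ranked by a score of genes known from the villus tip and the villus bottom, none of them described here, and cut into 5 equal parts, called quintiles 1 (bottom) to 5 (tip). In the ileum Fabp6 fell from 356 UMIs per 10000 in the bottom quintile to 189, 97.5, 46.0 and 15.2 at the tip, a 23.4-fold difference. Slc10a2 fell from 8.28 to 6.58, 5.598, 3.46 and 1.22, Slc51a from 16.0 to 10.9, 8.11, 5.08 and 2.10, and Fgf15 from 3.83 to 3.28, 2.15, 1.14 and 0.496. Slc51b fell least, from 8.86 to 8.55, 8.07, 6.68 and 4.03. All 5 genes thus decreased at each step in the ileum, Slc51b mainly in the last 2 quintiles.

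The bottom quintile exceeded the tip quintile in the ileum 7.73-fold for Fgf15 (6.90 to 8.67), 7.65-fold for Slc51a (7.24 to 8.08), 6.79-fold for Slc10a2 (6.32 to 7.31), 3.96-fold for Nr1h4 (3.36 to 4.69) and 2.20-fold for Slc51b (2.10 to 2.30). For Nr0b2, with 21 and 7 UMIs, the ratio was 3.08 (1.26 to 8.59). Over 8260 genes of the ileum the median log2 ratio of bottom to tip was 0.65, and 16.7% of genes lay at least 4-fold toward the bottom, as Fabp6, Slc10a2, Slc51a and Fgf15 did. The median depth of ileal cells rose from 5522.5 to 7458 UMIs from the bottom to the tip quintile and the mitochondrial share fell from 17.3% to 8.09%, and the part of these in the gradients was not tested.

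In the other segments the gradients of the exporter subunits differed. Slc51a fell from 1.62 to 0.623 UMIs per 10000 in the duodenum (2.60-fold) and from 1.91 to 0.265 in the jejunum (7.19-fold). Slc51b fell from 1.58 to 0.799 in the jejunum (1.98-fold) but stood at 1.12 in the bottom and 1.24 in the tip quintile of the duodenum. Nr1h4 fell 17.1-fold in the jejunum, from 0.181 to 0.0106 on 181 and 8 UMIs (8.48 to 40.1), and 1.93-fold in the duodenum, from 0.295 to 0.153. Nr0b2 fell 5.18-fold in the duodenum, from 0.167 to 0.0322, and 4.52-fold in the jejunum, from 0.0959 to 0.0212. Over all genes the median log2 ratio of bottom to tip was 0.39 in the duodenum and 0.62 in the jejunum. At least 4-fold toward the bottom lay 7.58% and 16.4% of genes. The median depth fell from 15868.5 to 8566 UMIs and from 13185 to 10851 from bottom to tip, and its part in these gradients was not tested.

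**Figure D3:**
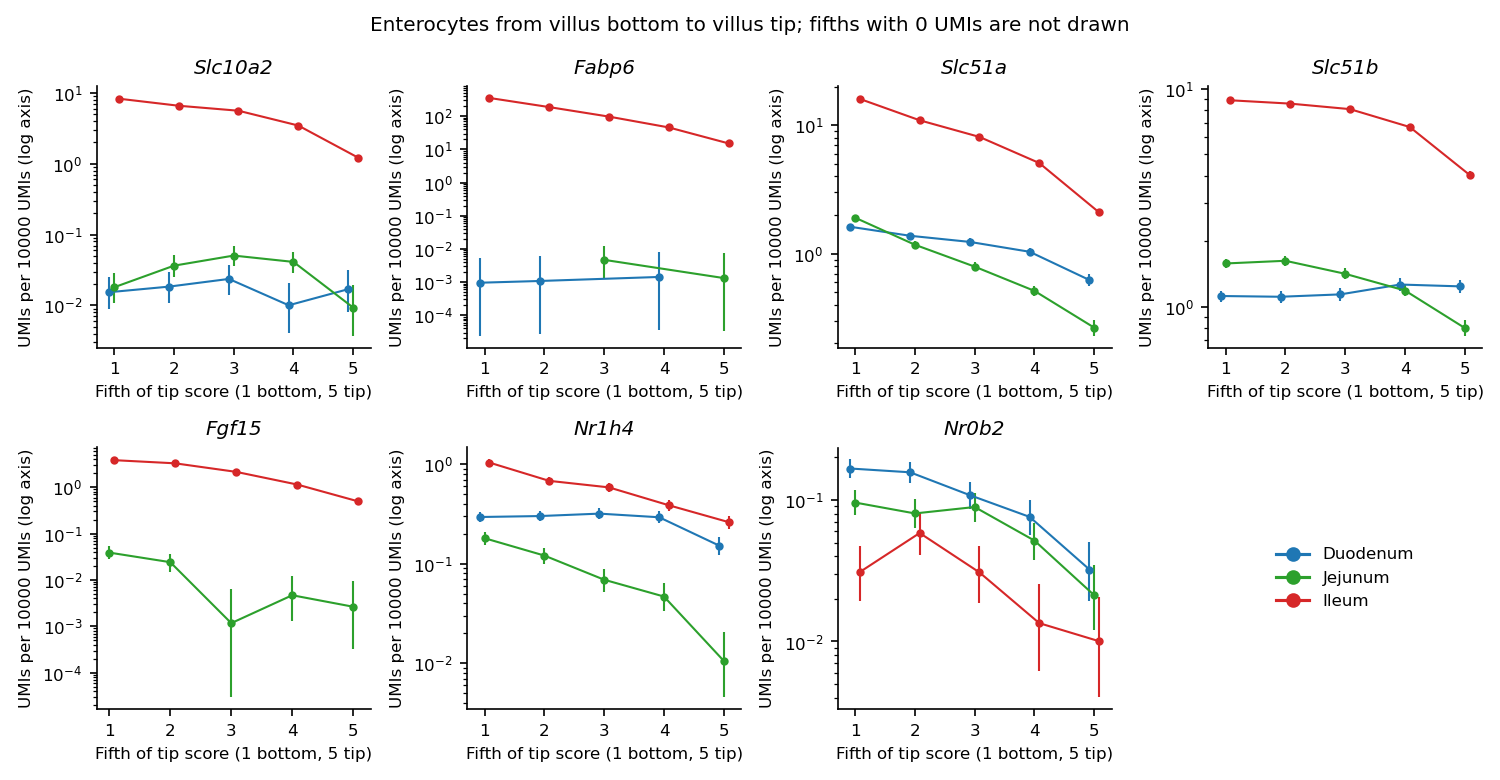
Level of each gene in UMIs per 10000 UMIs (log axis) over the quintiles of enterocytes ranked from villus bottom (1) to villus tip (5), 1 line per segment; bars are exact 95% Poisson intervals and quintiles with 0 UMIs are left out. In the ileum Fabp6 fell from 356 to 15.2 and Slc51b from 8.86 to 4.03, and duodenal Slc51b stayed between 1.11 and 1.26.

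Across the 3 libraries, the tip and bottom quintiles were compared by the same edgeR test over 9681 genes, of which 23.4% were called higher and 25.5% lower at the tip. Of the 6 members that passed the filter on low counts, 4 were called lower and 0 higher, with a median log2 difference of -1.57 against -0.07 over all genes. Fabp6, near 0 outside the ileum, did not pass that filter. Fgf15 had a log2 difference of -2.44 (SE 0.32, adjusted p = 0.00297), Slc51a -1.85 (SE 0.30, adjusted p = 0.0039), Nr0b2 -1.61 (SE 0.32, adjusted p = 0.00742) and Nr1h4 -1.53 (SE 0.45, adjusted p = 0.0311). Slc51a, Nr1h4 and Nr0b2 were lower at the tip in 3 of 3 libraries and Fgf15 in the 2 that held it.

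Slc10a2 had -1.199 (SE 0.52, adjusted p = 0.0986) and Slc51b -0.12 (SE 0.25, adjusted p = 0.715). Without the ileum Slc10a2 stood at 0.11 (adjusted p = 0.889, in alternatives 0.0156 to 0.889), and without the duodenum it passed, at -1.72 (adjusted p = 0.0196). Without the jejunum Nr1h4 did not pass (-0.98, adjusted p = 0.0658, in alternatives 0.000509 to 0.356). Without a library block 0 of the 6 passed. With library totals the share of calls in the higher direction fell from 47.9% to 22.5% and the median log2 difference of all genes from -0.07 to -0.58, and Slc10a2 then passed (-1.73, adjusted p = 0.0475).

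Of the 40 other pathway genes, 24 could be tested along the villus, and 5 rose and 8 fell, beside 23.4% and 25.5% of all genes. Among the 18 regulators tested 5 rose and 5 fell. Hnf4a, a master regulator of enterocytes, rose toward the tip (log2 difference 1.87, SE 0.20, adjusted p = 0.00128), and so did Gata4 (1.22, SE 0.28, adjusted p = 0.0123). Rxra, the partner of Nr1h4, was called higher at the tip too (0.75, SE 0.18, adjusted p = 0.0148), but its level rose in 2 of 3 libraries and not in the ileum. From the bottom to the tip quintile it went from 0.510 to 0.745 UMIs per 10000 in the duodenum. The jejunum went from 0.525 to 0.590 and the ileum from 0.544 to 0.505. Nr5a2 (-3.93, SE 0.38, adjusted p = 0.00103), Ppara (-2.42, SE 0.32, adjusted p = 0.00214) and Maf (-1.98, SE 0.34, adjusted p = 0.00463) fell. Against early enterocytes 10 of 31 tested pathway genes were higher in enterocytes and 4 lower, beside 21.0% and 18.4% of all genes. Against goblet cells the counts were 16 and 2, beside 21.0% and 16.8%, and against T cells 23 and 1, beside 31.6% and 29.8%.

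Within ileal enterocytes, the 7 clusters with at least 10 cells spanned a wide range. Fabp6 went from 9.75 UMIs per 10000 in c2 to 377 in c5, Slc10a2 from 0.706 in c2 to 9.08 in c0, Slc51a from 1.29 to 17.6, and Fgf15 from 0.300 in c2 to 4.54 in c3. The lowest cluster was c2 for all 7 genes. The highest was c5 for Fabp6, Slc51a, Slc51b and Nr1h4, c0 for Slc10a2 and c3 for Fgf15 and Nr0b2. The median depth of these cells was 6953.5 UMIs in c2, 14645 in c5, 9933 in c0 and 5547 in c3.

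Co-detection was counted in the 4128 ileal enterocytes after thinning each to 800 UMIs. None of the 7 genes was found in 474 cells, 1 in 1086, 2 in 1254, 3 in 859, 4 in 386, 5 in 64 and 6 in 5. Before thinning, 2185 cells (52.9%) held a UMI of each of Slc10a2, Fabp6, Slc51a and Slc51b, the genes of the path from entry to exit. All 7 genes were held by 40 cells (0.969%). Of the 1087 ileal T cells, 126 held Slc10a2, 1066 Fabp6, 264 Slc51a and 198 Slc51b before thinning. The part of UMIs from other cells in these counts was not tested. Of the 21 pairs, 18 had an odds ratio over 1, and pooled within quintiles of the villus score 15 did. Fabp6 with Nr0b2 had no odds ratio, since all 9 cells with Nr0b2 held Fabp6, and every pair with Nr0b2 rests on these 9 cells. The cells share 1 library, so the odds ratios are descriptions.

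Among the 15 pairs without Nr0b2, which had 9 cells after thinning, the highest odds ratio was that of Fabp6 with Fgf15, at 5.09 and 589 cells with both. Slc51a with Nr0b2 stood at 5.84 on 7 cells with both. Of Fgf15 cells 94.4% also held Fabp6, but most other enterocytes did so too. Among the cells without Fgf15, 2690 held Fabp6 and 814 did not. Slc10a2 with Fabp6 stood at 3.83, Fabp6 with Slc51a at 3.44, Slc51a with Fgf15 at 2.11 and Slc10a2 with Slc51a at 2.10. The exporter subunits, which work as a pair, stood at 1.45, with 637 cells holding both. All of these pairs without Nr0b2 were lower within quintiles, at 2.87 for Fabp6 with Fgf15 and 2.58, 1.84, 1.42, 1.53 and 1.23 for the others in this order. The order depended on thinning. Without it Fabp6 with Slc51a led at 13.7, Fabp6 with Slc51b stood at 6.75, Slc10a2 with Slc51a at 5.19, the exporter subunits at 4.32 and Fabp6 with Fgf15 at 2.31.

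The receptor and the hormone it induces were found together, after thinning, about as often as their separate shares give. Fgf15 with Nr1h4 stood at 1.10, with 29 cells holding both where 26.9 follow from the shares, and at 0.878 within quintiles. Without thinning the odds ratio was 1.89, and 35.1% of the 1863 Fgf15 cells and 22.3% of the other enterocytes held Nr1h4, with medians of 6671 and 6134 UMIs. Slc51b with Nr1h4 stood at 1.04. Over the 15 pairs without Nr0b2 the odds ratio ran from 1.04 to 5.09 with a median of 1.66, and within quintiles from 0.878 to 2.87 with a median of 1.33.

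**Figure D4:**
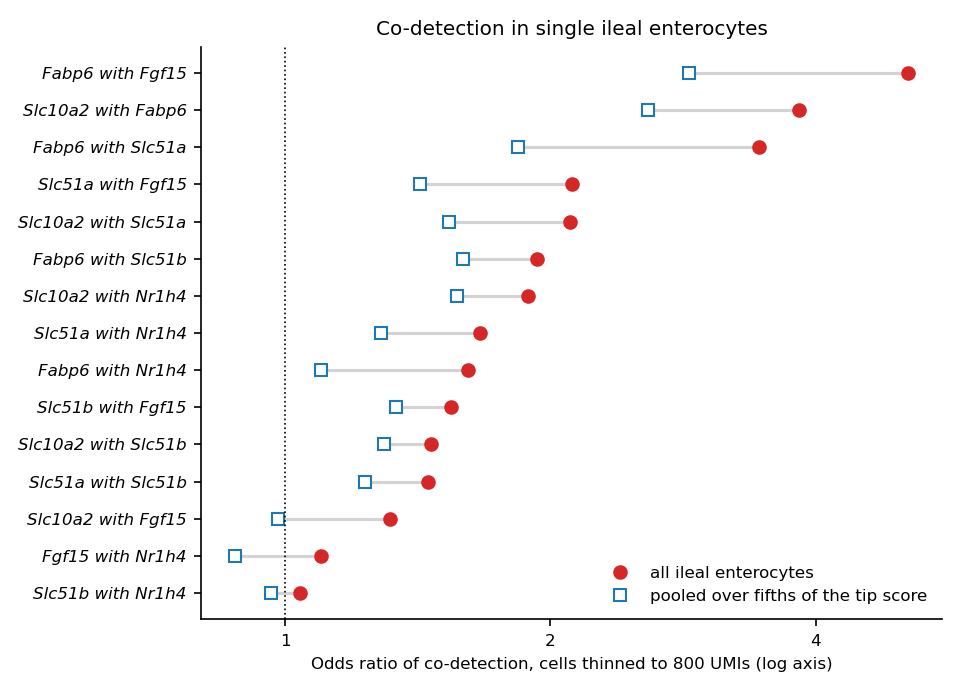
Odds ratio (log axis) of finding both genes of a pair in an ileal enterocyte, for the 15 pairs without Nr0b2 in 4128 cells thinned to 800 UMIs; filled circles are over all cells and open squares are pooled over quintiles of the villus score. After thinning, pairs with Fabp6 lead, at 5.09, 3.83 and 3.44, the squares lie to the left of the circles, and 3 squares lie below 1.

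The genes whose level followed each of the 7 most closely were sought by Pearson's r over 31 sums, one for each library and class of at least 10 cells, on log2 of the level plus 0.1, among 11857 genes. The sums share libraries and cell classes, so r is a description. Slc10a2 was followed most closely by Tmigd1 (r = 0.952), Fgf15 (0.924) and Slc25a48 (0.924), Fabp6 by Fgf15 (0.912), Slc10a2 (0.908) and Tmigd1 (0.889), and Fgf15 by Slc10a2, Fabp6 and Tmigd1 (0.865). Slc51a and Slc51b were each other's closest gene (0.917). Nr1h4 was followed by Abat (0.862) and Ggt6 (0.838), and Nr0b2 by Gm44386 (0.816) and Slc5a4a (0.811), and neither had one of the other 6 among its 5 closest genes.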

How the data were processed

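Droplet single-cell RNA-seq was available for 1 library per segment, duodenum, jejunum and ileum. The authors deposited UMI count matrices, made with Cell Ranger 3.0.2 on GRCm38 (mm10) per the submitters' processing notes, and no normalization had been applied to these counts. Barcodes were kept with a total of 800 to 50000 UMIs, a gene number of 200 to 6000 and a mitochondrial share no higher than 40%, and doublets called by Scrublet (0, 2 and 171 in duodenum, jejunum and ileum) were kept in the main analysis, since the caller marked almost none outside the ileum. Libraries were integrated in Seurat 5.3.0 on 1999 variable genes, without the 7 genes, and 30 principal components, and clusters at a resolution of 0.8 were named from fixed markers.

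UMIs were summed per library and class of at least 10 cells and tested with edgeR 4.0.16 (R 4.3.3), using filterByExpr, TMM, a library block and an adjusted p threshold of 0.05. Each SE was derived from that test, as the absolute log2 difference divided by the square root of the test's F statistic. DESeq2 1.42.0, library totals, no filter, no block, the 2 classes alone, 20% mitochondrial UMIs, doublets left out, a resolution of 1.2 and each library left out were alternatives, as were other segment, villus and co-detection settings. Counting c8 as enterocytes was chosen after seeing the data. The steps were tested on simulated data, where, in the comparison of enterocytes with early enterocytes over 12912 genes, 1.59% of the genes changed by a log2 of 1 were recovered, 34.9% of those changed by 2 and 75.8% of those changed by 3. Whole libraries were pools, so p-values measure a spread between 3 libraries and not between mice. In the class tests this spread was estimated over all 31 sums in 1 fit, and along the villus over 6 sums.

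The 7 genes were named whatever their values, with listed pathway genes and the 5 genes most like each. Members and lists were chosen with earlier results of these data known. Analyses in Python 3.11.15 used scipy 1.17.1.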

Additional observations from a re-analysis of the deposited data

Results flagged for a closer look

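Slc51b, the beta subunit of the exporter, moved in opposite directions in different segments, and these differences between segments were not tested. Its log2 ratio of enterocytes over early enterocytes was 0.36 in the duodenum (0.25 to 0.48), -0.55 in the jejunum (-0.63 to -0.47) and 0.05 in the ileum (0.02 to 0.09), a gap of 0.91 from duodenum to jejunum and of -0.60 from jejunum to ileum. Its log2 ratio of the villus tip over the villus bottom was 0.15 in the duodenum (0.01 to 0.28), -0.98 in the jejunum (-1.12 to -0.85) and -1.14 in the ileum (-1.20 to -1.07). The duodenum thus stood 1.13 above the jejunum and 1.28 above the ileum. Over all genes the median log2 of the reverse ratio, bottom over tip, was 0.39, 0.62 and 0.65 in duodenum, jejunum and ileum. Each ratio compares cells of 1 library, and its interval covers counting error only.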

How the results depend on the processing

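Of 139 summary values under an alternative, 121 stayed within their limit and 18 moved. Of 522 values of single genes and pairs, 400 stayed the same, 30 lost their call, 16 gained one, 69 moved and 7 changed direction. DESeq2 called 0 of the 7 genes between enterocytes and early enterocytes and 3 between enterocytes and goblet cells, where edgeR called 3 and 6, and without a library block the counts were 0 and 3. Along the villus, leaving out the block gave 2558 genes called instead of 4732 and 0 of the 7 genes instead of 4.

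Leaving out each library in turn gave 2822 to 4820 genes and 0 to 3 members against early enterocytes (5205 and 3 with all libraries, the lowest without the jejunum, and 1 member without the ileum). It gave 3156 to 4467 genes and 2 to 6 members against goblet cells (4991 and 6), 3 to 6 members against T cells (6), the lowest member counts without the ileum, and 2521 to 4399 genes along the villus (4732), the lowest without the jejunum. Along the villus Slc10a2 then ranged from -1.72 to 0.11 and Slc51b from -0.43 to 0.0789, positive without the ileum, and without the jejunum Slc51b was at 0.000264.

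Slc51b against early enterocytes turned to -0.10 with library totals, and Fgf15 to 0.55 with clusters at a resolution of 1.2 (adjusted p = 0.147, in alternatives 0.00369 to 0.937). The odds ratio of Slc51b with Nr1h4 was 0.921 with at most 20% mitochondrial UMIs and 0.979 with c8 counted as enterocytes. Members at least 4-fold lower in the ileum were 1 rather than 0 against the jejunum at the 20% limit, and 0 rather than 1 against the duodenum as a mean over cells. Genes at least 4-fold higher in the ileum than in both other segments were 351 in enterocytes, 1231 over all kept barcodes, 539 with the T cell level subtracted and 532 from 20 UMIs. The cause of these shifts was not tested. Between segments no paired analysis was possible because each has 1 library, while the library block pairs the classes within libraries. Without thinning, the odds ratio of Fabp6 with Fgf15 was 2.31 rather than 5.09, and that of Fabp6 with Slc51a 13.7 rather than 3.44. Depth limits Nr0b2 in the ileum (93 UMIs in enterocytes), Fabp6 outside it (3 and 5 UMIs) and jejunal Fgf15 (68 UMIs).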

Other observations

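Of the 7 listed genes that make or conjugate bile acids, 2 had enough UMIs in enterocytes for a ratio between segments. Cyp27a1, a sterol hydroxylase of bile acid synthesis, stood at 0.616, 0.590 and 0.301 UMIs per 10000 from duodenum to ileum. Cyp7a1, the rate-limiting enzyme of that synthesis in the liver, had 0 UMIs in enterocytes of the 3 segments, which allows levels of up to 0.000739, 0.000687 and 0.000906. Baat, which conjugates bile acids, stood at 0.0414 UMIs per 10000 in ileal enterocytes, 7.31-fold higher than in the duodenum. Malrd1, known as a regulator of Fgf15 production, was found in enterocytes of all segments, at 0.590, 0.554 and 1.05 UMIs per 10000 from duodenum to ileum. Maf, a transcription factor, stood at 2.50, 2.31 and 5.13, and Hnf4a at 2.66, 3.67 and 5.28. Against early enterocytes, edgeR with Benjamini-Hochberg adjustment called Rxra higher in enterocytes (log2 difference 0.93, adjusted p = 0.0024, in alternatives 7.5e-05 to 0.0634), as it did 21.0% of all genes. In the ileum Rxra stood at 0.577 UMIs per 10000 in enterocytes and 0.453 in early enterocytes.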
